A study of Homo sapiens with 4 samples.

Results

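The SLC25 family holds the carriers that move metabolites, nucleotides, cofactors and ions across the inner mitochondrial membrane. Its members were taken from the gene table as autosomal protein-coding genes whose symbol starts with SLC25A, which gave 37 of 27106 genes. RNA sequencing was done on THP-1, a human acute myeloid leukaemia cell line of monocytic type. In 2 libraries the cells had received an antisense oligonucleotide against the long noncoding RNA SGOL1-AS1 (called knockdown here), and in 2 libraries a non-targeting oligonucleotide. The columns of all 4 are marked day 5, and no dose or way of delivery is named. Reads summed over the table's genes came to 48558537 and 41435922 in the knockdown and 50855150 and 51851314 in the non-targeting libraries.

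Mitochondrial carriers are small membrane proteins made of repeats of a common module, and most exchange one solute for another. They feed ATP synthesis with ADP and phosphate, send citrate to the cytosol for fatty acid and sterol synthesis, run the malate-aspartate shuttle, and bring in iron for haem and iron-sulfur clusters. They are made in the cytosol and reach the inner membrane through TOM receptors, small TIM chaperones and the TIM22 translocase.

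No label ties the code 79-4 on 2 of the table's columns to the knockdown. These columns were assigned to it by elimination, since the other 2 are named as non-targeting, and numbered in column order, and every direction rests on that assignment. SGO1-AS1, the current symbol of the targeted RNA (ENSG00000231304, chromosome 3, 20174244 to 21145967, GRCh38), had 12 and 17 reads in the knockdown libraries and 24 and 21 in the non-targeting libraries. Its log2 fold change was -0.48 ± 0.37 (SE) with a limma adjusted p = 0.555, so at this depth the target does not check the labels. Of 9 monocytic markers 8 were at 1 TPM or more, and their summed level was 1577 and 1597 TPM in the knockdown libraries and 1439 and 1395 TPM in the non-targeting libraries. TPM is here a length-scaled share of the reads that sums to the same total in every library. Of these markers LYZ made up most of the sum, and CD4 and FCGR1A fell in the knockdown (limma, log2 fold changes -0.35 and -0.37, adjusted p = 0.000193 and 0.00118). The lymphocyte marker PAX5 stood at 17.8 and 22.0 TPM in knockdown libraries and 27.9 and 27.0 TPM in non-targeting libraries and fell (-0.58, limma, adjusted p = 2.45e-05). Erythroid and megakaryocyte markers summed to 0.280 to 0.490 TPM, with 4 of 5 lacking a row. The epithelial and fibroblast list, which includes the broadly expressed VIM, stood at 141 and 146 TPM in the knockdown and 155 and 150 TPM in the non-targeting libraries, and VIM fell (-0.20, limma, adjusted p = 0.0186). The part of these markers in the results below was not tested. Nothing in the labels says whether each library had a culture of its own, so the spread behind the p-values may be technical only.

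Across the family the change was small, and 2 of the 35 members tested fell: SLC25A1, the citrate carrier, and SLC25A28, the iron carrier mitoferrin-2. None rose by limma, edgeR or DESeq2. Values were tested as log2(normalised read count + 1) over the 19398 genes with a mean of at least 10. A gene was called at an adjusted p under 0.05, and fold changes are knockdown minus non-targeting. The 2 lower members are 5.71% of those tested, against 3.4% of all genes called lower, and 0.851% of all genes were called higher. At an unadjusted p under 0.05 there were 9 members (25.7%), against 17.2% of all genes. The median log2 fold change of the members was -0.04, against -0.01 over all genes tested, and the range ran from -0.37 to 0.37. SLC25A48, with 8 and 5 reads in knockdown and 11 and 15 in non-targeting libraries, and SLC25A47, with 3 and 0 against 1 and 0, were below the minimum and were not tested.

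The sequences just upstream of the farthest annotated SLC25A1 and SLC25A28 starts are shown because these are the members that fell. They come from RefSeq (GRCh38.p14) and were kept only where they lie before both the RefSeq and the GENCODE 29 start of the gene, 5′ to 3′ on the minus strand. The SLC25A1 stretch is chr22:19178831-19178986 and the SLC25A28 stretch is chr10:99620610-99620689. Both adjoin the GENCODE starts (19178830 and 99620609). The RefSeq starts lie further downstream (19178736 and 99620439), and the bases between the 2 starts are neither shown nor counted. Capitals mark the CCAAT box (CCAAT or its reverse complement ATTGG) and the GC box (GGGCGG or CCGCCC).
SLC25A1: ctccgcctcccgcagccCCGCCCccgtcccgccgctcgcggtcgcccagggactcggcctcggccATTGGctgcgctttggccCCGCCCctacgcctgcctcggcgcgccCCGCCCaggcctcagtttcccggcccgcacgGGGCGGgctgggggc
SLC25A28: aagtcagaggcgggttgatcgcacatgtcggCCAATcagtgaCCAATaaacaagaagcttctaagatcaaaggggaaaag
The 156 bases of SLC25A1 were 81.4% G or C and held 4 GC boxes and 1 CCAAT box. The 80 bases of SLC25A28 were 46.2% G or C and held 2 CCAAT boxes and 0 GC boxes. Of 35116 RefSeq start windows, 26.9% held a GC box and 19.7% a CCAAT box in their first 156 bases, and 13.9% and 9.90% did in their first 80 bases. The windows begin as far upstream of the RefSeq start as both stretches do, so their first bases end short of that start. Both stretches adjoin a GENCODE start, and shares for bases next to a start were not computed. Neither stretch held, on either strand, the NRF1 site (GCGC, any 1 base, then TGCGC), an interferon-response core (GAAA, any 2 bases, then GAAA) or a sterol-response core (TCACNCCAC). Of all windows, 1.94%, 1.83% and 0.535% held these in their first 156 bases, and 0.635%, 0.900% and 0.251% in their first 80. The motifs did not overlap each other in these stretches, and a match is a description of the letters only.

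SLC25A1 (ENSG00000100075, chromosome 22, 19175575 to 19178830, minus strand, GRCh38) exports citrate from mitochondria, where cytosolic ATP-citrate lyase turns it into acetyl-CoA. Its normalised read count was 8631 and 8110 in the knockdown libraries and 10395 and 9448 in the non-targeting libraries. Both knockdown values lay below both non-targeting values. The group means were 8371 ± 368 and 9922 ± 670 (SD, n = 2 each), a log2 fold change of -0.24 ± 0.05 (SE; limma, adjusted p = 0.0098; 95% interval -0.36 to -0.13). On the length-scaled TPM scale the groups touched: knockdown library 1 and non-targeting library 2 both stood at 245.5 TPM. The call ended without non-targeting library 1 (-0.18, adjusted p = 0.341), when all libraries were set to the same total (-0.19, 0.0811), with quantile normalisation (0.0871) and without limma's mean-variance trend (0.417).

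SLC25A28 (ENSG00000155287, chromosome 10, 99610522 to 99620609, minus strand) brings iron into mitochondria in most cell types, while its paralog SLC25A37 (mitoferrin-1, ENSG00000147454) is best known from developing red cells. SLC25A28 had normalised read counts of 858 and 912 in the knockdown libraries and 1116 and 1064 in the non-targeting libraries. The groups did not overlap, and 25.1% of all tested genes had both knockdown values below both non-targeting values. Its log2 fold change was -0.30 ± 0.07 (SE; limma, adjusted p = 0.0203; 95% interval -0.45 to -0.15), with means of 885 ± 38.2 and 1090 ± 36.7 (SD, n = 2 each). SLC25A37 stood at 2845 and 2781 in the knockdown and 2808 and 2715 in the non-targeting libraries, with overlapping groups (log2 fold change 0.03, 95% interval -0.09 to 0.15; limma, adjusted p = 0.868). The SLC25A28 call ended without non-targeting library 1 (-0.27, adjusted p = 0.251), non-targeting library 2 (-0.33, 0.0586) or knockdown library 1 (-0.26, 0.0596). It also ended with DESeq2 (-0.29, 0.0794), at the same total (-0.24, 0.0830), with quantile normalisation (-0.27, 0.0714) and without the trend (-0.30, 0.346). Over all 15 alternatives the fold change stayed between -0.34 and -0.24.

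**Figure D1:**
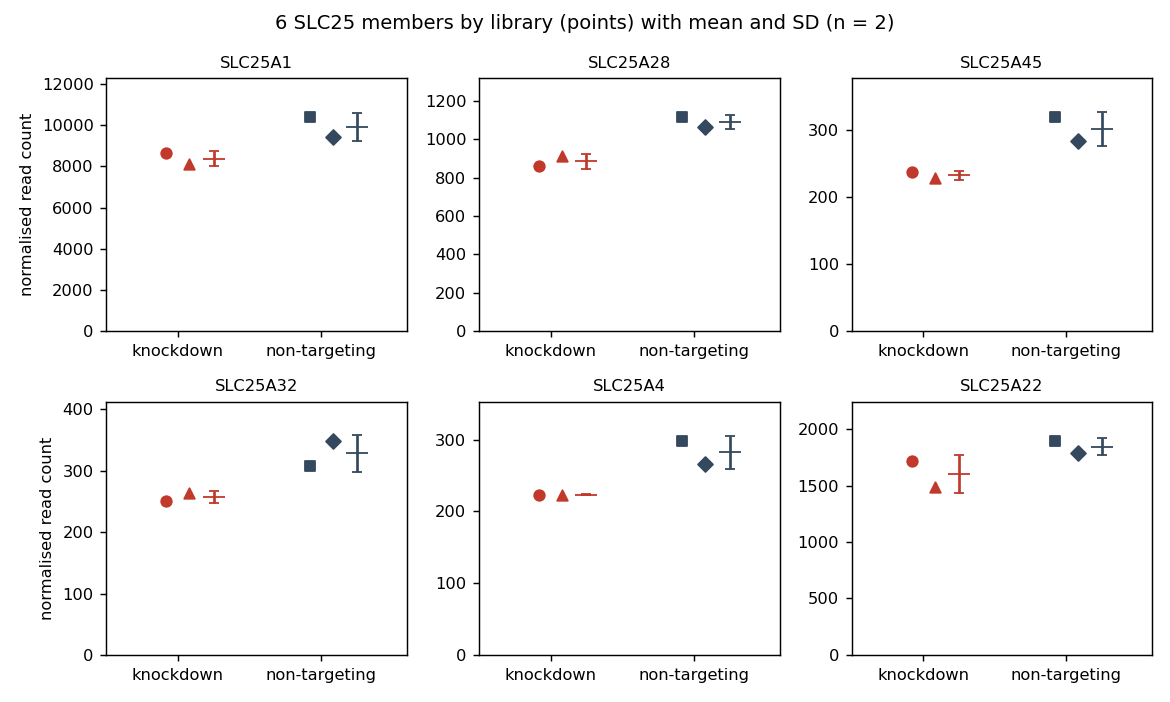
Normalised read counts (y axis, from 0) of 6 SLC25 members in each knockdown and non-targeting library (points), with the group mean and SD (n = 2) beside them. The panels show SLC25A1, SLC25A28, SLC25A45, SLC25A32, SLC25A4 and SLC25A22, which are among the 13 of 35 tested members (37.1%, against 25.1% of all genes) with both knockdown points below both non-targeting points. SLC25A1 and SLC25A28 passed the threshold.

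The ratio of SLC25A28 to SLC25A37, which does not depend on how libraries are scaled, was 1.40 and 1.52 in the knockdown libraries and 1.84 and 1.82 in the non-targeting libraries, on the TPM scale. The knockdown ratios were both lower, with a log2 difference of -0.33, and an exact two-sided permutation test gave p = 0.333, the smallest that 2 against 2 libraries allow. The other pairs of close relatives had overlapping ratios. The aspartate/glutamate carriers SLC25A12 and SLC25A13, which work in the malate-aspartate shuttle, had ratios of 0.270 and 0.306 in the knockdown and 0.296 and 0.285 in the non-targeting libraries. The pyrimidine nucleotide carriers SLC25A33 and SLC25A36 had ratios of 1.04 and 0.947 in the knockdown and 1.03 and 1.01 in the non-targeting libraries. SLC25A39, which carries glutathione, stood over its paralog SLC25A40 at 1.79 and 1.65 in the knockdown and 1.86 and 1.62 in the non-targeting libraries. In each of these 3 pairs the exact permutation p was 1, before any adjustment over the 4 pairs compared.

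**Figure D2:**
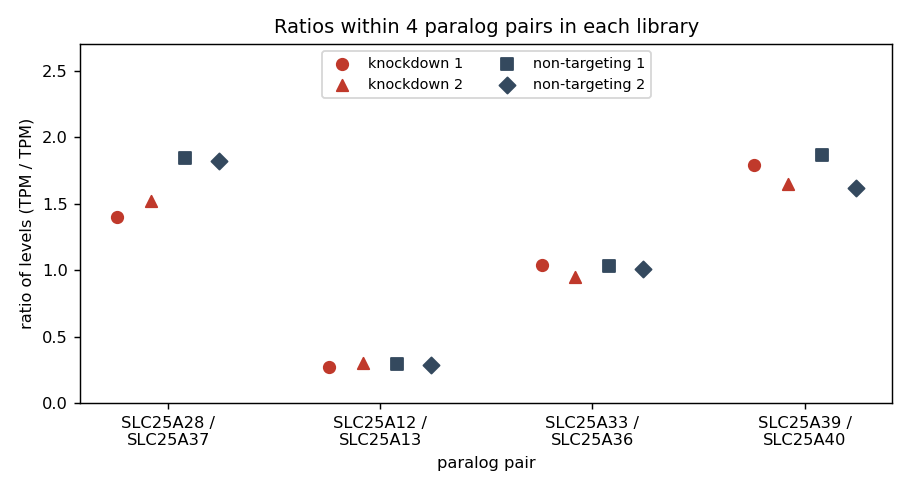
Ratio of TPM levels (y axis) within 4 pairs of SLC25 paralogs (x axis) in each of the 2 knockdown and 2 non-targeting libraries (points). The SLC25A28 to SLC25A37 ratio is 1.40 and 1.52 in the knockdown and 1.84 and 1.82 in the non-targeting libraries, and the other 3 ratios overlap between groups.

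Levels of the 37 members, which leave out the X-linked carriers and family members with other symbols, such as UCP2, spanned a wide range. In 19 of the 36 pairs of neighbours in the order the ranges over the 4 libraries overlapped. SLC25A1 and SLC25A3 stood above 100 TPM, 21 members lay from 10 to 100, 9 from 1 to 10 and 5 below 1. SLC25A1 averaged 238 ± 10.6 TPM in the knockdown and 261 ± 22.0 in the non-targeting libraries (SD, n = 2 each). SLC25A3, which imports phosphate and also copper, averaged 164 ± 4.82 and 158 ± 5.64 TPM, and its range over the 4 libraries did not meet that of SLC25A1. The ornithine carrier SLC25A15 came next at 75.7 ± 1.06 TPM in the knockdown and 68.9 ± 2.16 in the non-targeting libraries, also apart from its neighbours in the order. SLC25A39 and the oxoglutarate carrier SLC25A11 followed, and their ranges overlapped. SLC25A46, SLC25A28, SLC25A40 and SLC25A38 formed a run in which neighbours overlapped, between 29.2 and 35.5 TPM. A second run of overlapping neighbours went from SLC25A44 at rank 13 to SLC25A37 at rank 19. Lengths are the union of all annotated exons, which understates genes with long rare exons, such as SLC25A3 with 8896 bases.

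**Figure D3:**
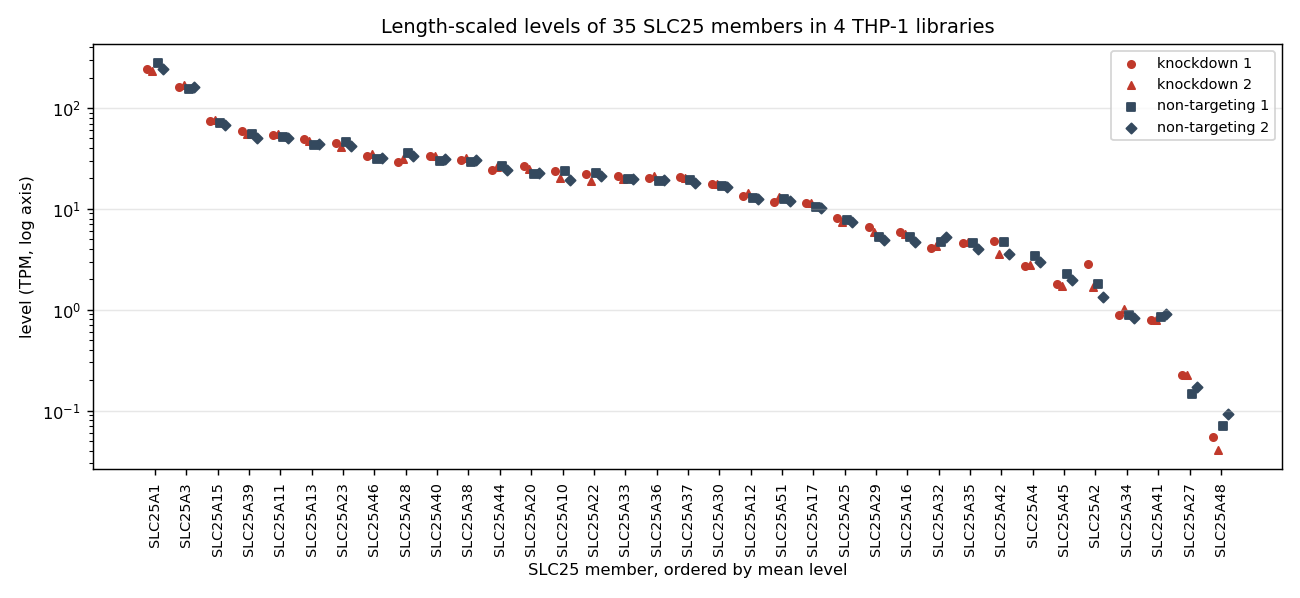
TPM (y axis, log scale) of 35 SLC25 members ordered by mean level (x axis) in the 2 knockdown and 2 non-targeting libraries (points). SLC25A1 and SLC25A3 stand above 100 TPM in every library, and SLC25A27 and SLC25A48 lie lowest. SLC25A47 has 0 reads in 1 library of each group and is not drawn.

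Summed, the 37 members took 1108 and 1089 TPM in the knockdown and 1110 and 1059 TPM in the non-targeting libraries, so the groups overlapped. The X-linked SLC25A5, SLC25A14, SLC25A43 and SLC25A53, outside the rule, are not in this sum. Neither are family members with other symbols, such as UCP2, UCP3 and MTCH1. SLC25A1 made up 22.2% and 21.2% of that sum in the knockdown and 24.9% and 23.2% in the non-targeting libraries. Without SLC25A1 the sum was 863 and 859 TPM in the knockdown libraries, against 833 and 814 TPM in the non-targeting libraries. The other members together therefore stood 1.05 times as high in the knockdown on this scale, which scales by length and sets every library to the same total. On the deposited counts the lean was the other way. There the tested members, SLC25A1 among them, had a median log2 fold change of -0.04, and 21 of 35 were negative.

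Among carriers of adenine nucleotides and phosphate, 0 of 5 tested passed by limma, edgeR or DESeq2. An unadjusted p under 0.05 was found in 2 (40%), against 17.2% of all genes tested. All 5 fold changes were negative (median log2 fold change -0.14), as were 52.5% of those of all genes. SLC25A4, the ADP/ATP carrier of heart and muscle, had 222 and 224 normalised reads in the knockdown and 299 and 266 in the non-targeting libraries. Its groups did not overlap, and at -0.34 (adjusted p = 0.121, limma) it did not pass. The calcium-sensitive ATP-Mg/phosphate carrier SLC25A23 had 3687 and 3352 normalised reads in the knockdown and 4021 and 3732 in the non-targeting libraries (-0.14, limma, adjusted p = 0.224). Its relatives SLC25A25 and SLC25A41 stood at -0.07 and -0.25, the last on only 19 to 29 reads a library. SLC25A3 had 24006 and 25046 normalised reads in the knockdown and 24574 and 26470 in the non-targeting libraries, with an interval of -0.16 to 0.05. At the same total in every library its fold change was 0.00047, against -0.06 as deposited. SLC25A24 and SLC25A31 of this group are not analysed here, and neither is the X-linked SLC25A5, which is outside the rule. SLC25A6, another ADP/ATP carrier, is not among the 37 members either.

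Among the di- and tricarboxylate carriers 1 of 5 tested fell (20%), SLC25A1, against 3.4% of all genes called lower. SLC25A11, which exchanges oxoglutarate for malate in the malate-aspartate shuttle, had 2413 and 2448 normalised reads in the knockdown and 2458 and 2483 in the non-targeting libraries. Its values differed little in every library, with an interval of -0.14 to 0.10. The dicarboxylate carrier SLC25A10 had 1049 and 898 in the knockdown and 1118 and 929 in the non-targeting libraries, a spread within each group larger than the difference between them. The less well characterised SLC25A35 and SLC25A34 stood at 0.00044 and 0.04. SLC25A10 shares 46.6% of its exonic bases with AC139530.2, an annotated gene on the same strand, and SLC25A35 shares 33.2% with RANGRF on the other strand. In all, 16 members share some exonic bases with another gene, 6 of them over 10%, and SLC25A1 and SLC25A28 share none. How reads in such stretches were counted is not given in the sources used here.

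Of 10 tested amino acid and carnitine carriers 0 passed by limma, edgeR or DESeq2. An unadjusted p under 0.05 was found in 4 (40%), against 17.2% of all genes, and the median log2 fold change was 0.02. SLC25A45, linked to the uptake of methylated amino acids, had the most negative fold change of the 35 tested members at -0.37 (limma, adjusted p = 0.0782). It had 238 and 228 normalised reads in the knockdown and 320 and 284 in the non-targeting libraries. The glutamate carrier SLC25A22 had 1719 and 1484 in the knockdown and 1898 and 1791 in the non-targeting libraries (-0.21, limma, adjusted p = 0.112). Both members had groups that did not overlap. Without knockdown library 1 SLC25A22 was called lower (-0.31, limma, adjusted p = 0.00213), as was SLC25A23 (-0.21, limma, adjusted p = 0.0318).

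SLC25A44, which imports branched-chain amino acids, stood at -0.13 (limma, adjusted p = 0.230) and the glycine carrier SLC25A38 at -0.06. SLC25A29, a carrier of basic amino acids, had 827 and 736 normalised reads in the knockdown and 706 and 674 in the non-targeting libraries (0.18, limma, adjusted p = 0.278). Its knockdown values were both higher, as in 4 of the 35 members (11.4%), against 21.6% of all genes. The second ornithine carrier SLC25A2, an intronless gene, had 67.1 and 39.9 in the knockdown and 46.1 and 34.8 in the non-targeting libraries, so its fold change of 0.36 came with overlapping groups. Without knockdown library 1 it was at -0.0052. SLC25A15 (0.02), SLC25A20, the carnitine-acylcarnitine carrier of fatty acid oxidation (0.07), SLC25A12 (0.02) and SLC25A13 (0.04) had intervals that all included 0.

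Of 10 tested nucleotide and cofactor carriers 0 passed by limma, edgeR or DESeq2. An unadjusted p under 0.05 was found in 1 (10%), against 17.2% of all genes, and the median log2 fold change was -0.04. SLC25A32, which carries folate and FAD, had 250.3 and 264.6 normalised reads in the knockdown and 307.3 and 349.0 in the non-targeting libraries. Its groups did not overlap, and at -0.35 (limma, adjusted p = 0.0928) it did not pass. It shares 69.7% of its exonic bases with AC012213.5 on the same strand and 11.1% with DCAF13 on the other. The NAD carrier SLC25A51 was at -0.10 and did not pass.

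SLC25A39 had 3509 and 3249 normalised reads in the knockdown and 3485 and 3266 in the non-targeting libraries, a log2 fold change of 0.0012 and the highest mean TPM of this group. SLC25A40 was at 0.02, SLC25A33 at -0.06 and SLC25A36 at -0.02. SLC25A16 and SLC25A42, both linked to coenzyme A, were at 0.10 and -0.09. SLC25A42 differed by 0.42 between the knockdown libraries and by 0.35 between the non-targeting libraries on the log2 scale, more than between the groups. SLC25A17, which sits in peroxisomes, was at 0.04.

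Of the remaining 3 members SLC25A46, an outer membrane protein of mitochondrial fission, had 4654 and 4844 normalised reads in the knockdown and 4673 and 4886 in the non-targeting libraries. Its interval was -0.12 to 0.10. SLC25A30, a relative of the uncoupling proteins, was at -0.04, and SLC25A27, the brain-type uncoupling protein UCP4, at 0.37 on 9 to 13 reads a library. None of these 3 passed by limma, edgeR or DESeq2, and 0 had an unadjusted p under 0.05, against 17.2% of all genes.

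**Figure D4:**
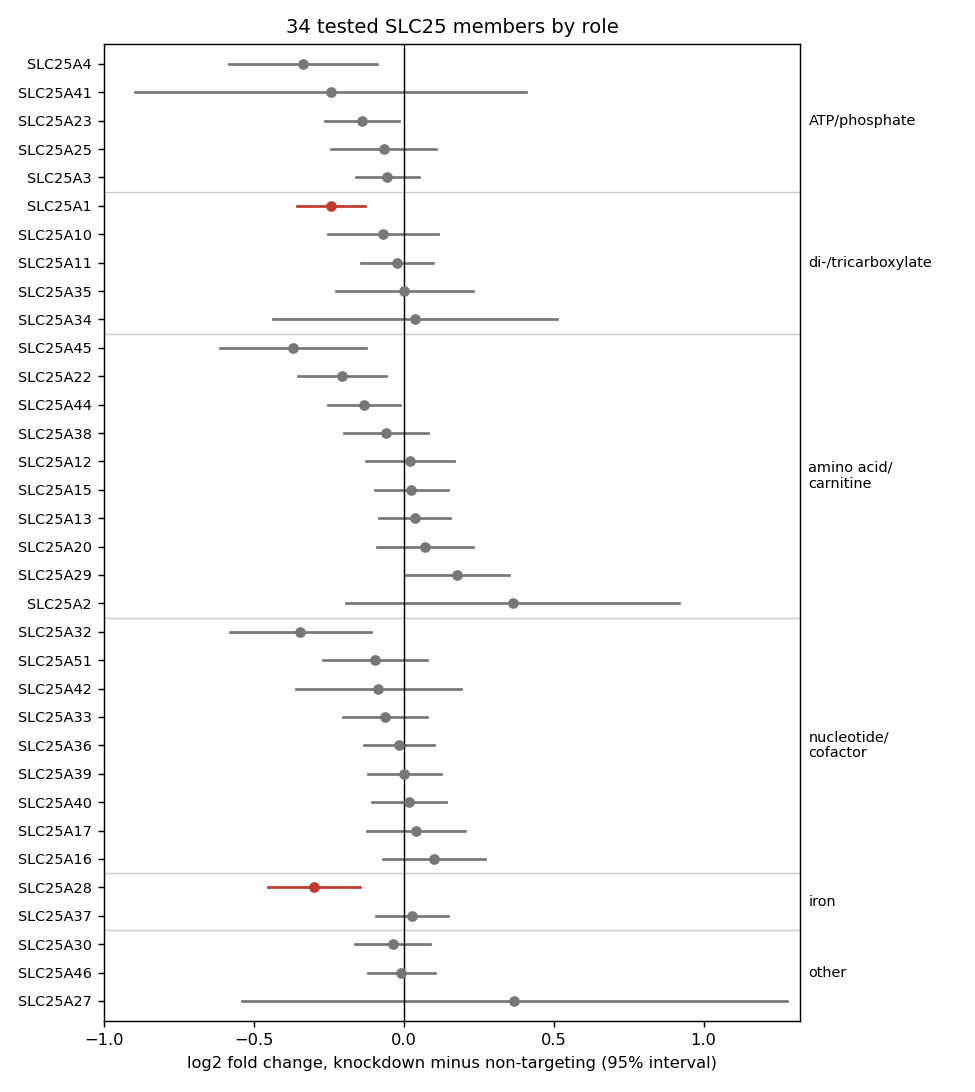
Log2 fold change, knockdown minus non-targeting (x axis), of 34 tested SLC25 members with 95% limma intervals, grouped by role (right). SLC25A1 and SLC25A28, in red, passed the threshold, and the intervals of SLC25A41, SLC25A2 and SLC25A27, which have few reads, are the widest.

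For 31 of the 35 members the whole 95% interval lay within a fold of 1.5 in either direction. This held for 12619 of all 19398 genes tested. Larger changes of these 31 members are outside the intervals, and the part of read depth in this was not tested. The median absolute fold change was 0.07 on the log2 scale, the same size as the median difference between the knockdown libraries (0.07) or the non-targeting libraries (0.07). Over all genes tested these medians were 0.11, 0.12 and 0.10. In 15 members (42.9%) the fold change was larger than both within-group differences, against 33.9% of all tested genes. Both knockdown values lay below both non-targeting values in 13 members (37.1%), against 25.1% of all genes.

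A further 7 lists hold genes that work with the carriers and other mitochondrial transporters. Among the latter are UCP2, UCP3 and MTCH1, carriers of the same family that lack the SLC25A symbol. Of the genes on these lists 3 of 102 tested fell (2.94%), a share near the 3.4% of all genes called lower. None rose by limma, edgeR or DESeq2, against 0.851% of all genes called higher. Of the 102 genes 68.6% had a negative fold change, against 52.5% of all genes tested. Both shares are on the deposited scaling, and small fold changes can change sign at the same total. As deposited, normalised counts summed to 46567996 and 47257455 in the knockdown and 48837136 and 48781470 in the non-targeting libraries. Both knockdown values lay below both non-targeting values in 33.3% (25.1% of all genes) and above them in 12.7% (21.6% of all genes). In iron-sulfur cluster and haem synthesis 1 of 15 fell: ALAS1, the rate-limiting enzyme of haem synthesis in non-erythroid cells. It had 6014 and 6220 normalised reads in the knockdown and 7219 and 7197 in the non-targeting libraries (log2 fold change -0.24 ± 0.05 SE; limma, adjusted p = 0.00701). Its call ended without non-targeting library 1 (adjusted p = 0.0996) or 2 (0.0706), at the same total (0.0501) and without the trend (0.357).

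Among 21 other mitochondrial transporters SFXN3, a sideroflexin of the inner membrane, fell, with 2812 and 2937 normalised reads in the knockdown and 3308 and 3320 in the non-targeting libraries (-0.21, limma, adjusted p = 0.0381). Of 17 one-carbon, proline, urea-cycle and fatty acid enzymes CPT2, which releases fatty acids from carnitine inside mitochondria, fell, with 2216 and 2256 in the knockdown and 2613 and 2566 in the non-targeting libraries (-0.21, limma, adjusted p = 0.0396). SFXN3 and CPT2 were 4.76% and 5.88% of the genes tested on their lists, against 3.4% of all genes called lower. The groups of both genes did not overlap. Both calls ended with edgeR (adjusted p = 0.0519 for SFXN3 and 0.0538 for CPT2) and DESeq2 (0.0975 and 0.114), and without either non-targeting library (0.215 to 0.260 for SFXN3, 0.167 to 0.341 for CPT2) or knockdown library 1 (0.113 and 0.0729). SFXN3 passed in 6 and CPT2 in 5 of 15 alternatives.

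The carrier import list had 0 of 14 genes past the threshold and 2 at an unadjusted p under 0.05, with TIMM13 at -0.13 and TIMM10 at 0.13 (limma, adjusted p = 0.208 and 0.249). For this list and the next 3, the share of all genes at an unadjusted p under 0.05 was 17.2%. The malate-aspartate and citrate shuttle enzymes had 0 of 12, with 4 at an unadjusted p under 0.05. Among them ACLY, which splits the citrate that SLC25A1 exports, was at -0.12 (limma, adjusted p = 0.193), and the aconitase ACO1 at 0.18 and the malic enzyme ME1 at -0.21 had the smallest p. The regulators of mitochondrial biogenesis had 0 of 12, with 1 at an unadjusted p under 0.05, where PPARGC1A was at 0.28 and POLG at -0.10. The fission and fusion list had 0 of 11, with 3 at an unadjusted p under 0.05, where SPIRE1 was at -0.27 and INF2 at -0.20 (limma, adjusted p = 0.0509 and 0.0825). Neither edgeR nor DESeq2 called a gene on these 4 lists. Other alternatives did: SPIRE1 and INF2 were called lower with robust empirical Bayes. With knockdown library 1 left out INF2 was called lower and TIMM10B, a small TIM chaperone, higher. With knockdown library 2 left out SPIRE1 and the protease YME1L1 were called lower and ACO1 higher, and without non-targeting library 2 INF2 was called lower. The medians of the 7 lists lay between -0.06 and -0.00021, against -0.01 over all genes.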

How the data were processed

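RNA was sequenced from 4 THP-1 libraries, 2 per group. The deposited values are a signal, per the values themselves: whole reads per gene over 1 factor per library. STAR 2.5.1b, DESeq2 and GRCh38 are named per the submitters' processing notes, with no role or order. Counting tool, strand setting and annotation release: not given in the sources used here. Whole reads were recovered, with 100% of values within 0.01 of a whole read. Each gene has at least 2 reads in knockdown library 1, and no gene with fewer reads there was analysed here. Symbols matched 26579 of 27106 identifiers, and GENCODE 29 matched 26077. Of 43 annotated autosomal coding SLC25A genes, 6 had no row and are not analysed here. The X-linked SLC25A5, SLC25A14, SLC25A43 and SLC25A53 are outside the rule, as are family members with other symbols, such as UCP2. Promoter sequences matched 29 of the 37 members.

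Limma 3.58.1 (R 4.3.3) with its trended empirical Bayes step was run on log2(value + 1). Genes averaging 10 or more were tested, and Benjamini-Hochberg adjustment ran over all 19398 at 0.05. The pseudocount understates changes of low genes. TPM was computed from recovered reads and union exonic length. Alternatives were 2 filters, 2 pseudocounts, 3 scalings, 2 limma settings, edgeR 4.0.16 and DESeq2 1.42.0 on recovered reads, and each library left out. A library left alone in its group takes the spread of the other group. Within groups, counts differed by a chi-square of 5.49 (knockdown) and 4.94 (non-targeting) per degree of freedom, so no library copied another. Members, lists and tests were chosen with earlier results of these data known. The genes named were, by rule, the called members, the highest member of each role, the 4 largest fold changes each way, 4 paralog pairs, and of each other list the called genes or the 2 with the smallest p. The remaining members were added to account for the family, and 1 member and 1 marker are not reported here.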

Additional observations from a re-analysis of the deposited data

How the results depend on the processing

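The fold changes of SLC25A1 and SLC25A28 stayed negative in all 15 alternatives, and they passed the threshold in 11 and 8 of them. The 2 filters and 2 limma settings left both fold changes as they were. Where groups do not overlap, neither a pseudocount nor leaving out 1 library can reverse the sign. Of the 35 members 2 were called, against 1 with DESeq2, 0 with the same total in every library, 0 with quantile normalisation, 0 with no mean-variance trend, and 0 to 3 with 1 library left out. Genes called over the whole table were 825, against 528 with the same total, 476 with quantile normalisation, 0 with no trend, 447 with DESeq2, and 421 to 1220 with 1 library left out. Partner genes called were 3, against 1 with the same median, 0 with the same total, 1 with quantile normalisation, 5 with robust empirical Bayes, 0 with no trend, 1 with edgeR, 1 with DESeq2, and 0 to 6 with 1 library left out. Of the lower and higher calls over all genes, 660 and 165, the split was 650 and 291 with the same median, 293 and 235 with the same total and 334 and 142 with quantile normalisation.

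Some members, none of them called, changed sign. All but SLC25A2, at 0.36 as deposited, were near 0. With the same median SLC25A36 was at 0.00054 and SLC25A46 at 0.0080. With the same total SLC25A3 was at 0.00047, SLC25A30 at 0.020, SLC25A11 at 0.033, SLC25A36 at 0.041 and SLC25A46 at 0.048. With quantile normalisation SLC25A3 was at 0.0084, SLC25A11 at 0.017, SLC25A36 at 0.026, SLC25A46 at 0.035 and SLC25A34 at -0.025, and with edgeR SLC25A46 was at 9.0e-05. With 1 library left out SLC25A10 ranged from -0.20 to 0.064, SLC25A12 from -0.038 to 0.080, SLC25A2 from -0.0052 to 0.73, SLC25A25 from -0.14 to 0.0037, SLC25A34 from -0.056 to 0.13, SLC25A35 from -0.073 to 0.074, SLC25A36 from -0.052 to 0.019, SLC25A39 from -0.054 to 0.057, SLC25A40 from -0.039 to 0.073, SLC25A42 from -0.30 to 0.13 and SLC25A46 from -0.041 to 0.023. The cause was not tested. No paired analysis was possible because the 2 groups' columns share fewer than 2 replicate numbers. SLC25A47 and SLC25A48 had too few reads to be tested.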
